A study of Mus musculus with 2 samples.

Results

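The T cell receptor (TCR) alpha and beta loci were examined where their joining and constant gene segments lie, in 1 library of acetylated histone H3 (H3KAc) and 1 IgG library from mouse Th2 cells. The regions were 320 bins of 1 kb, of 2246042 bins covered in the genome. Of these, 200 lie on chromosome 14 from 54700001 to 54900000 (mm9) and 120 on chromosome 6 from 41400001 to 41520000. They were chosen by position, with earlier H3KAc and IgG values of these libraries known, so the levels below describe the loci and are not tests. Both libraries came from Th2 cells of C57BL/6 mice, grown from spleen cells positive for CD4 and CD62L. Stimulation through CD3 and CD28 lasted 5 days, in 10 ng/ml IL-4 and 2 µg/ml of a blocking antibody to interferon gamma, and a rest of 3 days followed. The precipitating antibody, 7 µg in each case, was directed against H3KAc in one library and was polyclonal rabbit IgG in the other. The sources used here do not give the age of the animals or say whether animals were pooled. Because each antibody has 1 library, there is no p-value, and every interval covers counting error between these libraries only.

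TCR alpha and beta chains are built by V(D)J recombination, which joins 1 variable segment to 1 joining segment (with a diversity segment between them in beta). The DNA between the joined segments is usually cut out of the chromosome. The rearranged chromosome then keeps the constant gene and the joining segments between it and the joint, and loses only the DNA that lay between the joined segments. At alpha, an enhancer lies between the constant gene and Dad1, which encodes a subunit of the oligosaccharyltransferase complex and is expressed in most cells. At beta, an enhancer lies behind the second constant gene, and pancreatic trypsinogen genes lie between the main group of variable segments and the diversity segments. Acetylation of histone H3 is a mark of active promoters and enhancers.

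Levels are distinct read positions per 1000000 distinct positions of the library (RPM). H3KAc had 19711169 positions and IgG 1897666, and a covered bin held on average 8.78 and 0.845 of them, which is 0.445 RPM per kb in both. IgG was thus measured far less deeply, and 60.5% of covered bins had no IgG position. The RefSeq gene table is on another build, GRCm38.p6, so it was used for the order of genes and not for their place. In that order the alpha locus runs from the delta constant gene through 60 listed joining segments, Traj61 to Traj1, of which 9 are pseudogenes, to the constant gene Trac, then Dad1 and Abhd4. The beta locus runs from the trypsinogen genes Prss1 and Prss2 to Trbd1, the Trbj1 segments, Trbc1, Trbd2, the Trbj2 segments and Trbc2, then Trbv31 and Ephb6. In mm9 the alpha constant gene lies near 54.84 Mb and the beta diversity, joining and constant genes near 41.48 to 41.50 Mb. Markers of other cell types were not checked here, since no gene was placed on mm9.

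The promoters of Dad1 and Prss2 are shown because these protein-coding genes come next to the segments in gene order. Dad1 follows the alpha constant gene, and Prss2 precedes the beta diversity segments. Sequences are from RefSeq on GRCm38.p6, 5′ to 3′ on the gene's strand and ending at the base before the start. The Dad1 sequence, chr14:54253930-54254128 on the minus strand, is the whole of the 199 bases between the start of Dad1 and the start of Abhd4, which is transcribed the other way. The Prss2 sequence, chr6:41521526-41521775 on the plus strand, has 250 bases. Capitals mark CG dinucleotides and, in Prss2, the motif TATAAA.
Dad1: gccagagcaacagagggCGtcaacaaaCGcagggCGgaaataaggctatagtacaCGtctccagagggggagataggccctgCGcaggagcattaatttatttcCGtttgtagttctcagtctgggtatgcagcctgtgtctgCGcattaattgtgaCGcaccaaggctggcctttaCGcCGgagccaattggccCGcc
Prss2: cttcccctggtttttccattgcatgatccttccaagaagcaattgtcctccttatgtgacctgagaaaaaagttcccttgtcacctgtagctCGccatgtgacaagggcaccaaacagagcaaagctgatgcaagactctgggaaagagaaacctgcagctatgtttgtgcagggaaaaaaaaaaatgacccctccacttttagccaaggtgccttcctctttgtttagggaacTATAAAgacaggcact

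The Dad1 sequence held 11 CG dinucleotides, a number that 31.6% of 32851 promoters reach over the same length. The Prss2 sequence held 1, which 92.1% of promoters reach over its length. TATAAA, searched on both strands, was in the Prss2 sequence and in 12.4% of promoters over that length, and was not among the letters of the Dad1 sequence. These letters describe the promoters, and no read count was assigned to either of them.

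At the alpha locus, H3KAc was low over the first 80 kb, rose across the following 80 kb towards the constant gene and fell again behind it. In order along the chromosome, the 8 windows of 10 kb from 54700001 to 54780000 held 6, 12, 6, 2, 16, 4, 17 and 29 H3KAc positions, where the mean of covered bins would give 87.8. The next 8 windows, to 54860000, held 77, 167, 192, 287, 318, 467, 539 and 335. The last 4 held 146, 211, 164 and 109. The 3 stretches of windows were delimited after these values were seen. H3KAc was 0.0583 RPM per kb (exact Poisson 95% interval 0.0470 to 0.0716) in the first stretch and 1.51 RPM per kb (1.45 to 1.57) in the second. The second was 25.9 times the first (exact conditional 95% interval 21.0 to 32.2). The third stretch had 0.799 RPM per kb (0.738 to 0.864). The highest window, from 54840001 to 54850000, is the one that starts at the constant gene landmark. It had 2.73 RPM per kb, 6.14 times the mean of covered bins, and only 0.128% of covered 10-kb windows were as high.

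**Figure D1:**
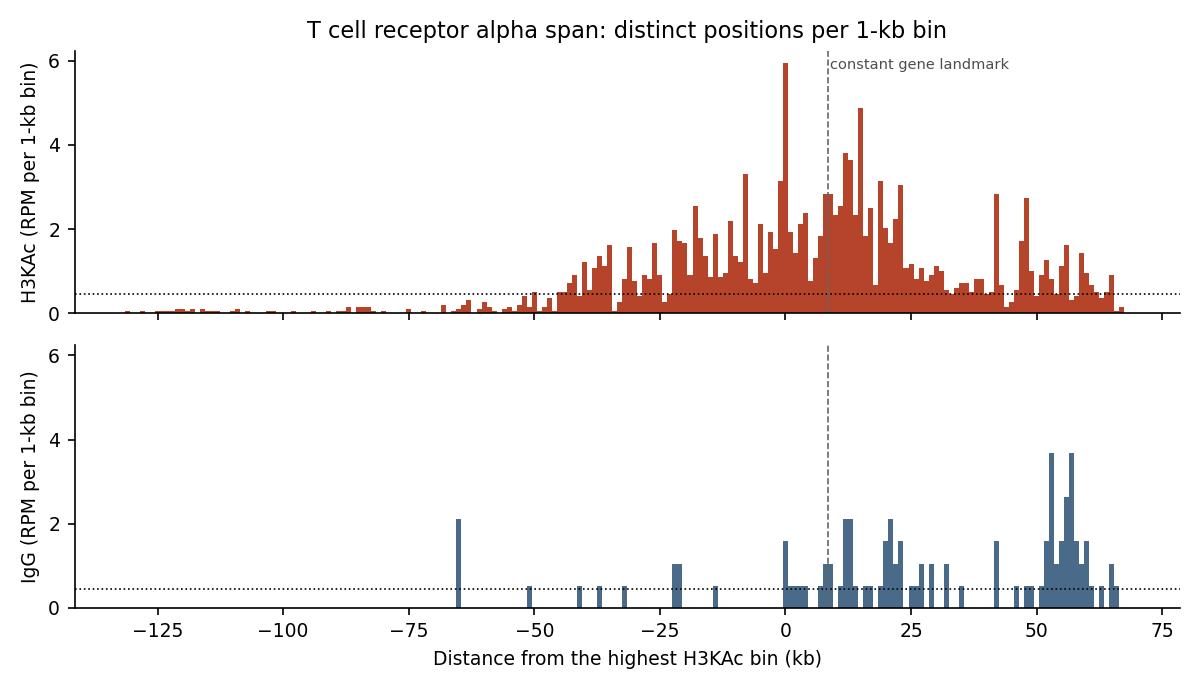
H3KAc (top) and IgG (bottom) in each 1-kb bin of the alpha span, in RPM, against distance in kb from the highest H3KAc bin, with the mean of covered bins (0.445 RPM) as a dotted line and the constant gene landmark as a dashed line. H3KAc rises from left to right towards the landmark, and IgG is nearly empty on the left and has its highest bins, at 3.69 RPM, on the right.

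IgG was also low over the first 80 kb of the alpha span. It held 4 positions there, all in 1 bin, where the mean of covered bins would give 67.6, a fold of 0.0592 (0.0161 to 0.152). H3KAc in the same 80 kb was at 0.131 of its mean (0.106 to 0.161). No position of either library was found in 34 of these 80 bins. The ratio of H3KAc to IgG there was 2.21, with an interval that included 1 (0.836 to 8.30). Outside the span, the 100 kb to the left had 70 H3KAc and 4 IgG positions, which are 0.0798 (0.0622 to 0.101) and 0.0473 (0.0129 to 0.121) of the means. The 100 kb to the right had 1006 and 82, which are 1.15 (1.08 to 1.22) and 0.971 (0.772 to 1.20) of the means. Both libraries were thus low to the left and near or above the genome's mean to the right. In a bulk population, fewer DNA copies of a region and less acetylation on each copy cannot be told apart from H3KAc counts alone. The DNA amount was not measured apart from IgG, reads that could not be aligned uniquely would also lower both libraries, and the part of either in these levels was not tested.

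The H3KAc level and its ratio to IgG did not peak in the same windows. On the joining segment side, from 54700001 to 54840000, H3KAc averaged 0.580 RPM per kb against 0.0866 RPM per kb of IgG, which is a ratio of 6.70 (4.45 to 10.6) from 1600 and 23 positions. On the side of the constant gene, the enhancer and Dad1, from 54840001 to 54900000, H3KAc averaged 1.27 RPM per kb against 0.729 RPM per kb of IgG, which is a ratio of 1.74 (1.40 to 2.20) from 1504 and 83 positions. From the joining to the constant side, H3KAc was 2.19 times higher (2.04 to 2.35) and IgG 8.42 times higher (5.25 to 14.0). The joining side includes the first 80 kb, with only 92 H3KAc and 4 IgG positions, so both folds depend on where the span starts. In the 20 kb before the landmark alone, H3KAc averaged 1.99 RPM per kb, above the constant side. The window from 54820001 to 54830000 had 318 H3KAc and no IgG positions, so H3KAc was at least 8.25-fold higher, the lower end of the exact 95% interval. The windows from 54830001 and from 54840001, with 467 and 539 H3KAc positions, had 10 and 14 IgG positions and ratios of 4.50 (2.42 to 9.44) and 3.71 (2.19 to 6.83). The window from 54880001 to 54890000 had more IgG than any other of the span, 32 positions against 164 of H3KAc, and a ratio of 0.493 (0.336 to 0.745). Without that window, left out after its values were seen, the constant side had a ratio of 2.53 (1.91 to 3.41) and the whole span 3.82 (3.04 to 4.89), against 2.82 (2.32 to 3.45) with it.

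**Figure D2:**
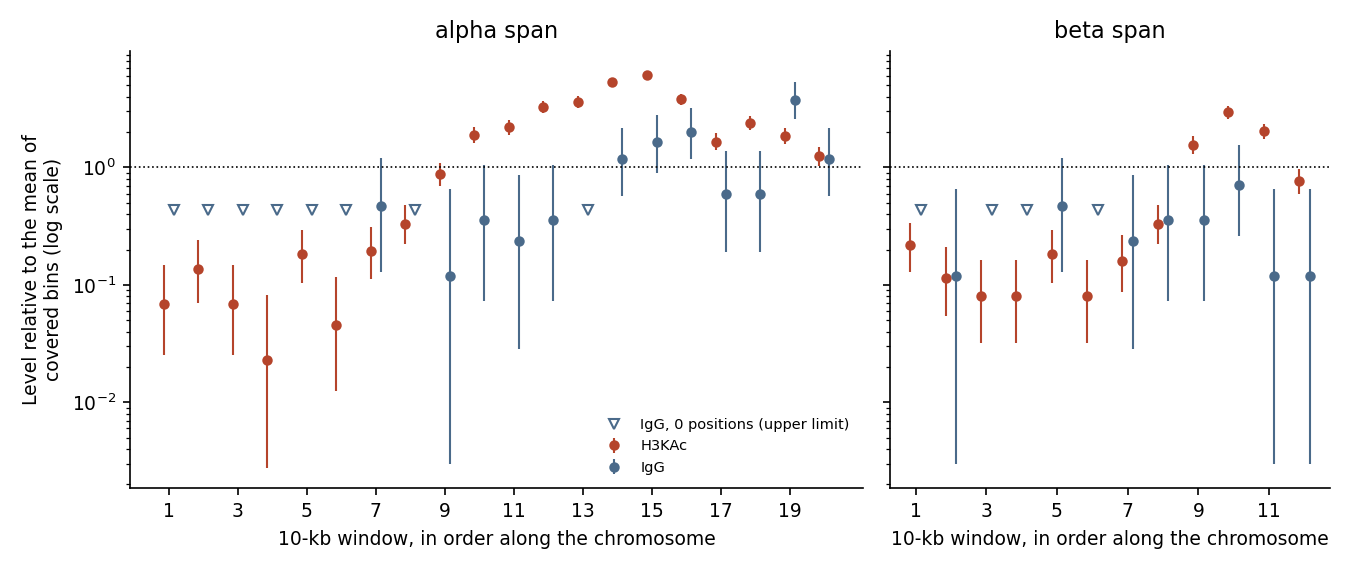
Level of H3KAc and IgG in each 10-kb window relative to the mean of covered bins (log axis), by window in order along the chromosome, for the alpha (left) and beta (right) spans; bars are exact 95% intervals of counting error and open triangles the upper end of the interval where IgG had 0 positions. H3KAc reaches 6.14 times the mean at alpha and 2.96 times at beta, and is at most 0.330 times the mean in the first 8 windows of each span.

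The highest H3KAc bins of the alpha span lay on both sides of the landmark. The bin from 54831001 to 54832000, on the joining segment side of the landmark, held 117 H3KAc and 3 IgG positions, or 5.94 RPM (4.91 to 7.11) and 1.58 RPM. It was 13.3 times the mean of covered bins, a level that 0.146% of covered bins reach. The bin from 54846001 to 54847000, between 6 and 7 kb past the landmark, held 96 H3KAc positions, 4.87 RPM (3.94 to 5.95), and no IgG position. H3KAc there was at least 2.46-fold higher than IgG by the same bound. Next came the adjoining bins from 54843001 and 54844001, with 75 and 72 H3KAc positions and 4 IgG positions in each. The bin from 54823001, the highest in the window without IgG, held 65. The others of the 10 highest, starting at 54830001, 54850001, 54854001, 54839001 and 54840001, held 62, 62, 60, 56 and 56. Towards Dad1 and beyond, from 54860001 on, 2 of 40 bins held over 50 positions, those starting at 54873001 with 56 and 54879001 with 54, among neighbours of 3 to 34.

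By a cutoff of 2 times the mean, high H3KAc at alpha fell into several runs rather than 1 block. A bin was taken as high at 2 times the mean of covered bins, that is from 18 positions, with 17 just outside. In the genome 11.3% of covered bins were high, against 67 of 165 covered bins (40.6%) of the alpha span, a share that the choice of the locus enters. The longest run had 12 bins, from 54837001 to 54849000, spanning the landmark, with 2.72 RPM per kb in H3KAc and 0.747 in IgG. Of 136552 runs in the genome, 1057 (0.774%) were as long. The second run, of 10 bins from 54826001 to 54836000, had 2.35 RPM per kb in H3KAc and 0.369 in IgG. A further 2 runs had 7 bins, from 54850001 to 54857000 with a ratio to IgG of 1.95 (1.14 to 3.61), and from 54809001 to 54816000 with 5.68 (2.19 to 21.0). Of the 20 runs, 8 were single bins. The longest run was parted from the second and from the run at 54850001 by single bins, with 15 and 13 positions. The upper ends of their intervals, 1.26 and 1.13 RPM, lie above the 0.913 RPM of 18 positions, so these breaks are within counting error. With 1 lower bin allowed inside a run, the longest had 37 bins.

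At the beta locus, H3KAc was low in front of the diversity segments and higher across the diversity, joining and constant genes and behind them. The 8 windows from 41400001 to 41480000, which come before these genes, held 19, 10, 7, 7, 16, 7, 14 and 29 H3KAc positions. The 4 windows from 41480001 to 41520000 held 137, 260, 178 and 67. H3KAc was 0.0691 RPM per kb (0.0568 to 0.0834) in the first 80 kb and 1.01 RPM per kb in the 20 kb of the diversity, joining and constant genes, 14.6 times higher (11.8 to 18.2). In the 20 kb behind them, on the side of the enhancer and Trbv31, it was 0.621 RPM per kb, which is 0.617 of the level over the genes (0.524 to 0.725).

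**Figure D3:**
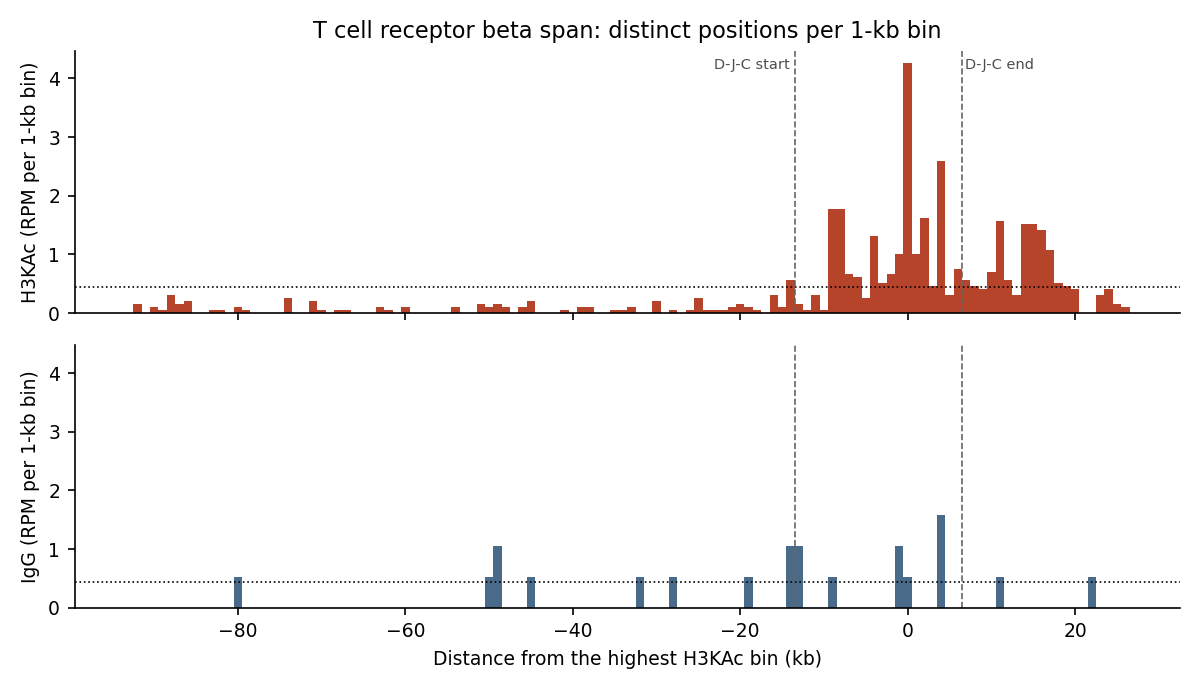
H3KAc (top) and IgG (bottom) in each 1-kb bin of the beta span, in RPM, against distance in kb from the highest H3KAc bin; dashed lines mark the interval given for the diversity, joining and constant genes (D-J-C), and dotted lines the mean of covered bins (0.445 RPM). The bins with over 1 RPM of H3KAc lie within and behind that interval, and IgG has 21 positions in all.

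The 80 kb in front of the beta diversity segments had few positions in IgG as well. IgG held 10 there against 67.6 at the genome's mean, a fold of 0.148 (0.0709 to 0.272), and H3KAc was at 0.155 of its mean (0.127 to 0.187). The ratio of the libraries was 1.05 (0.549 to 2.25), and 34 of the 80 bins held no position. Further left, 100 kb held 78 H3KAc and 12 IgG positions, or 0.0889 (0.0703 to 0.111) and 0.142 (0.0734 to 0.248) of the means. To the right of the span, 100 kb held 959 and 88, or 1.09 (1.02 to 1.16) and 1.04 (0.835 to 1.28) of the means. As at alpha, both libraries were low on the side of the variable segments and near the mean on the other side. Across the diversity, joining and constant genes IgG was at 0.533 of its mean (0.244 to 1.01), from 9 positions, and in the 20 kb behind them at 0.118 (0.0143 to 0.428), from 2. The ratio of H3KAc to IgG was 4.25 (2.21 to 9.36) over the genes and 11.8 (3.23 to 97.9) behind them. What lowered IgG behind the genes was not tested.

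The highest bin at beta stood within the interval of the diversity, joining and constant genes, and no single gene was assigned to it. The bin from 41493001 to 41494000 held 84 H3KAc positions, 4.26 RPM (3.40 to 5.28), and 1 IgG position, a ratio of 8.09 (1.41 to 323). It was 9.57 times the mean of covered bins, a level reached by 0.355% of them. The bin from 41497001 followed with 51 H3KAc and 3 IgG positions. A pair of bins from 41484001 to 41486000 held 35 each, with 1 IgG position between them. Behind the interval, bins starting at 41504001, 41507001, 41508001 and 41509001 held 31, 30, 30 and 28, with 1 IgG position in the first. The remaining bins among the 10 highest, from 41495001 and 41489001, held 32 and 26. Trbc1 and Trbc2 are near-identical in their coding exons, and how reads with several alignments were treated was not stated in the sources used here. The levels at the constant genes are therefore uncertain. Of the 100-bp windows of the interval, 39.0% held no position of either library. The share was lower on the alpha constant side, 30.8%, where H3KAc was higher (1.27 against 1.01 RPM per kb). It was higher on the alpha joining segment side, 62.1%, and in front of the interval, 87.5%, and also behind the interval. Whether reads with several alignments changed these shares was not tested.

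High bins made up a smaller share of the beta span than of the alpha span, and their runs were shorter. Of 85 covered bins, 13 (15.3%) were high, against 11.3% in the genome and 40.6% at alpha. The low first 80 kb make up more of the beta span than of the alpha span, so these shares depend on the limits of the spans. The longest runs had 4 bins. These lay from 41492001 to 41496000, with 156 H3KAc and 3 IgG positions and a ratio of 5.01 (1.68 to 24.5), and from 41507001 to 41511000, with 109 and 0. In the second run H3KAc was at least 2.80-fold higher than IgG, the lower end of its interval. A run of 2 bins started at 41484001, and 3 more runs were single bins. In the genome, 9.62% of runs had 4 bins or more.

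**Figure D4:**
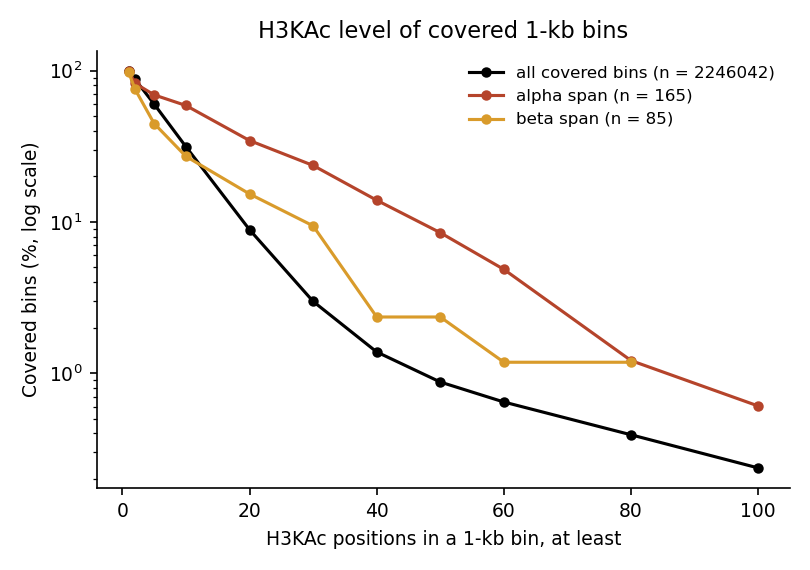
Share of covered 1-kb bins (percent, log axis) that held at least the given number of H3KAc positions, for all covered bins of the genome, 165 of the alpha span and 85 of the beta span. At 20 positions or more the shares were 8.88% in the genome, 34.5% at alpha and 15.3% at beta, and at 5 or more 60.1%, 69.1% and 44.7%.

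The H3KAc level was higher at alpha than at beta, over the spans and over a part of equal length from each. The alpha span had 0.787 RPM per kb and the beta span 0.318, a fold of 2.48 (2.29 to 2.69), while IgG had 0.279 and 0.0922, a fold of 3.03 (1.88 to 5.09). The first 80 kb, low in both libraries, make up more of the 120 kb at beta than of the 200 kb at alpha. These folds therefore depend on the limits of the spans. The ratio of H3KAc to IgG was 2.82 (2.32 to 3.45) over the alpha span and 3.44 (2.24 to 5.60) over the beta span. These intervals overlap, so the difference in level between the spans was not seen in the ratio. The 20 kb of joining segments before the alpha landmark had 1.99 RPM per kb, 1.98 times (1.75 to 2.24) the 1.01 over the beta diversity, joining and constant genes. These parts are unlike, since the alpha part ends at the constant gene landmark and the beta part includes the constant genes. In the same comparison IgG had 10 and 9 positions, a fold of 1.11 (0.406 to 3.09). Relative to 100 kb on each side, H3KAc was 2.88 times as high (2.69 to 3.09) in the alpha span and 1.21 times (1.10 to 1.33) in the beta span. In IgG the same folds were 1.23 (0.919 to 1.66) at alpha and 0.350 (0.208 to 0.564) at beta, where H3KAc was above its flanks and IgG below them. With flanks of 50 kb the H3KAc folds became 4.62 (4.13 to 5.18) and 1.06 (0.946 to 1.18), and with H3KAc thinned to the IgG number beta had 0.895 (0.652 to 1.22). The thinned value comes from 1 random draw, and its interval includes the 1.21 of all positions. Whether the beta span stood above its flanks thus depended on the flank length, and its left flank was low and its right flank near the mean.

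Few single bins were called against the IgG of the same bin. A bin was called enriched when the lower bound of its ratio was above 2, given at least 5 positions in both libraries together, and 0.0836% of tested bins of the genome were called. At alpha 1 of 115 tested bins was called (0.870%), and at beta 0 of 41. The called bin was that from 54846001, with a lower bound of 2.46, and the next highest bound was 1.65, for the bin from 54823001. These bins held 96 and 65 H3KAc positions and no IgG position. Even a bin without IgG thus needed more than 65 H3KAc positions to be called, and few bins of the spans had so many. The low number of calls therefore reflects the depth of IgG and does not show that acetylation was absent. The call from 54846001 was lost when bins started 500 bp later and with 500-bp bins. When IgG was summed over 11 bins, 44 of 123 tested bins at alpha and 13 of 54 at beta were called, against 1.59% in the genome. Of these, 36 lay on the alpha joining segment side and 8 on its constant side, 7 within the beta diversity, joining and constant genes and 6 behind them. This rule responds to low surrounding IgG too.

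In windows of 10 kb, 5 of 18 tested windows at alpha were called by the same bound, against 0.361% in the genome. They are the 5 from 54800001 to 54850000, with lower bounds of 2.52, 3.12, 8.25, 2.42 and 2.19. The window before them had a bound of 1.80 and the one after them 1.17. At beta 1 of 12 was called, that from 41500001 to 41510000 just behind the constant genes, with a ratio of 17.1 (3.04 to 681), and the window before it had a bound of 1.89. These calls rest on 0 to 14 IgG positions in each window and changed with the setting. With plus-strand reads alone 2 windows at alpha and 0 at beta were called, with minus-strand reads 3 and 1, and with thinned H3KAc 4 and 0. With all reads as deposited 9 and 4 were called. Low windows were counted too: 7 of 20 at alpha and 7 of 12 at beta held less than 0.25 of the mean H3KAc level, against 16.0% of covered windows. Windows without any IgG position numbered 8 at alpha and 4 at beta, against 8.17% of covered windows.

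The highest bins had an uneven fine structure. Profiles in windows of 100 bp were drawn over 2.5 kb to each side of the 3 highest bins of each locus that lie at least 5 kb apart. Around the alpha bin from 54831001, the highest window held 20 positions, 50 bp left of the bin's centre, and 8 of the 50 windows exceeded 0.5 of it. They formed a group around the centre and another group 750 to 850 bp to its left, where windows held 16 and 17. The bin from 54846001 had a sharper maximum, with 24 positions 150 bp left of its centre and 3 windows above 0.5 of that. The others of these windows lay apart from it, 950 and 2250 bp right of the centre. The beta bin from 41493001 had a flatter maximum, at most 13 positions, with 13 windows above 0.5 of it. Some of these windows formed a separate group, 1950 to 2150 bp right of the centre. Plus-strand and minus-strand reads contributed 65 and 52 positions, 49 and 47, and 40 and 44 to these 3 bins. The beta bin from 41484001 was less even, with 12 and 23.

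**Figure D5:**
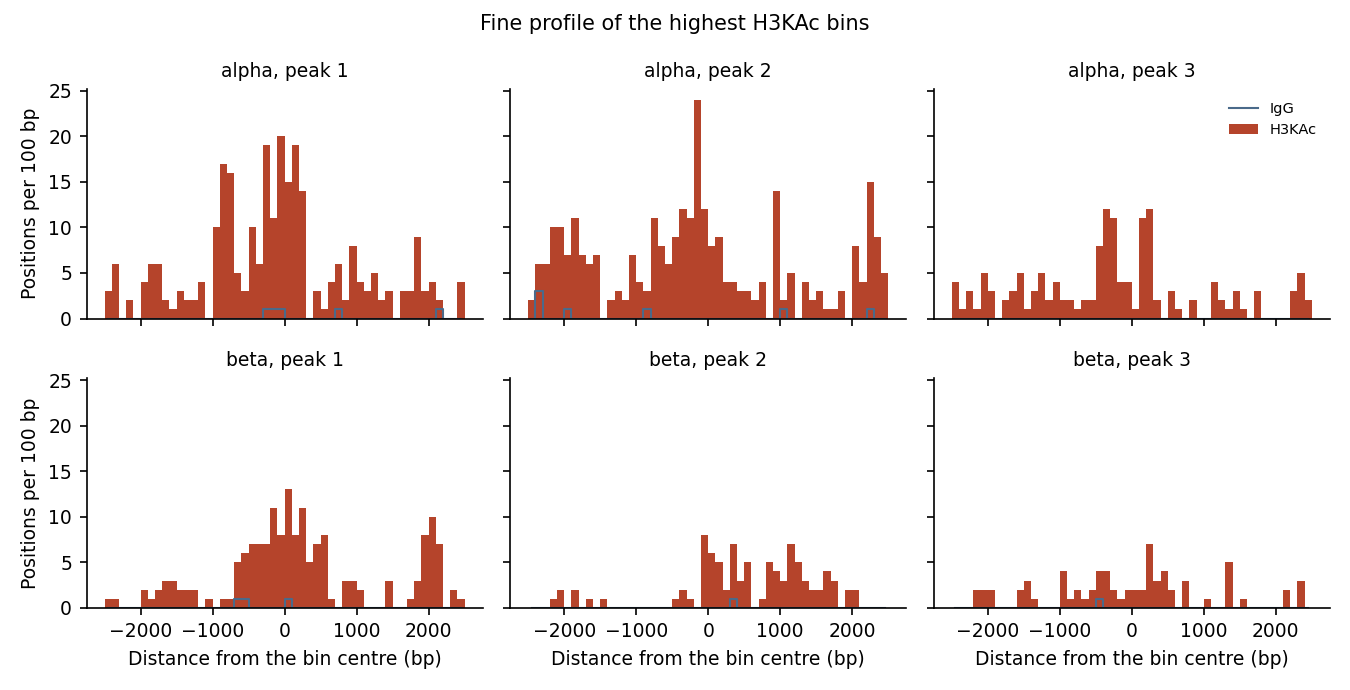
H3KAc (bars) and IgG (line) positions per 100-bp window against distance in bp from the centre of the 3 highest H3KAc bins at least 5 kb apart in the alpha (top) and beta (bottom) spans. Alpha peaks 1 and 2 reach 20 and 24 positions in a window, beta peak 1 reaches 13, and beta peaks 2 and 3 reach 8 and 7.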

How the data were processed

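The authors deposited 1 row per aligned read for each of the 2 libraries, with its position and strand, per the file headers in the series' readme. All reads were 35 bases long. Reads had been aligned with Bowtie to mm9, per the submitters' processing notes. The Bowtie version is not given in the sources used here, nor is the treatment of reads with several alignments. Reads that shared chromosome, strand and 5′ end were collapsed to 1, which left 19711169 of 21845451 H3KAc and 1897666 of 7626703 IgG reads. Each was moved 100 bp along its strand, where the protocol's median fragment is 200 bp, and assigned to 1-kb bins.

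Ratios have exact conditional binomial (Clopper-Pearson) and levels exact Poisson 95% intervals. Reads carried no molecular identifiers, so only counting error is covered. Where IgG had 0 positions, the lower end of the interval is given as the least fold. The regions and lists were chosen with earlier results of these data known. Named by rule were, in each locus, the 10 highest bins in H3KAc, the 5 highest lower bounds, the 3 highest bins in IgG and the 3 longest runs. Bins from 54873001 and 54879001 were named after their values were seen. The intervals and calls were tested on simulated counts, drawn independently for each bin and library (Poisson). Such counts have no clustering of positions, so this checks the computation and not how well the intervals hold for these libraries. Computation used scipy 1.17.1 and numpy 2.4.6 under Python 3.11.15, with matplotlib 3.10.9 for figures and pandas 2.3.3 for tables.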

Additional observations from a re-analysis of the deposited data

How the results depend on the processing

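No paired analysis was possible because each antibody has 1 library and the labels give no replicate numbers. Over 15 planned settings and 1 added after seeing the data, most values stayed within their main interval or 1.5 times the count. Enriched bins at alpha (1) became 31 with all reads as deposited, 44 with IgG over 11 bins, 9 with a lower bound above 1, and 0 with thinned H3KAc, plus-strand or minus-strand reads alone, a bound above 4, 500-bp bins or bins starting 500 bp later. At beta (0) they became 9 with all reads, 13 with IgG over 11 bins and 1 with a bound above 1. Thinning, single strands and 500-bp bins leave fewer positions in a bin, which by itself makes a call harder. Enriched 10-kb windows (5 at alpha, 1 at beta) became 9 and 4 with all reads, 2 and 0 with plus-strand reads, 3 at alpha with minus-strand reads and 0 at beta with thinned H3KAc. With all reads, copies of IgG positions were counted as independent.

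Thinning H3KAc, in 1 random draw, gave a fold of 2.72 for alpha over beta, 3.43 for alpha over its flanks and 0.895 for beta over its flanks. The last is below 1, but its interval (0.652 to 1.22) includes the 1.21 of all positions. Thinning shortened the longest beta run to 2 kb. It also leaves fewer bins covered, and so moved IgG relative to the mean from 0.627 to 0.392 over the alpha span, from 0.194 to 0.122 on its joining side and from 1.64 to 1.02 on its constant side. The last was 1.30 with plus-strand reads. With 1 lower bin allowed, the longest alpha run was 37 kb. Flanks of 50 kb gave 4.62 for H3KAc and 2.41 for IgG at alpha, the latter against 1.23 with 100 kb, and 1.06 for H3KAc at beta. Without the window highest in IgG, the ratio was 3.82 over the alpha span and 2.53 on its constant side, and IgG was 0.461 and 1.21 of its mean. Causes other than those given were not tested. The number of IgG positions, 106 at alpha and 21 at beta, limits every ratio.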

Other observations

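H3KAc had 1.10 reads per position at alpha and 1.09 at beta, against 1.11 in the library, and IgG had 424 reads at 106 positions at alpha and 104 reads at 21 positions at beta, or 4.95 reads per position, against 4.02 in the library. In the 80 kb before the diversity segments IgG had 5.80 reads per position, from 10 positions. The most reads at 1 position were 6 in H3KAc and 17 in IgG. The reads set aside as copies were lower in H3KAc than in IgG per 1000000 reads over both spans, with ratios of 0.330 (0.281 to 0.388) at alpha and 0.294 (0.211 to 0.410) at beta. Copies enter these intervals as if independent. The whole IgG library also held more copies than the H3KAc library (4.02 against 1.11 reads per position). Ratios below 1 are therefore not particular to these loci, and the same ratio for the whole libraries is not given here. Plus-strand positions made up 50.4% of H3KAc at alpha and 48.7% at beta.

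The 3 alpha bins with the most IgG positions, starting at 54884001, 54888001 and 54887001, lay together near the right end of the span, with 7, 7 and 5 IgG and 16, 6 and 32 H3KAc positions. In the first and the second of them H3KAc was below IgG, with ratios of 0.220 (0.0857 to 0.633) and 0.0825 (0.0229 to 0.287). At beta the bin from 41497001 held 3 IgG positions, and of 4 bins tied at 2 those from 41492001 and 41479001 had the most H3KAc positions, 20 and 11.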
